A study of Mus musculus with 6 samples.

Results

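Cytosolic ribosomal protein genes encode the protein part of the small and large subunits of the ribosome, the particle that translates mRNA in the cytosol. They were examined in jejunum RNA of irradiated mice given NeuroD-EGFP or EGFP. A gene was a member when its symbol in the platform annotation began with Rpl or Rps and a number, or was Rplp0, Rplp1, Rplp2 or Rpsa, with Rps6k kinases and names marked as pseudogenes left out. The rule found 65 genes, read by 96 of the 45281 probes on the array. Of these, 58 genes with 84 probes could be tested, because 3 or more of the 6 arrays detected at least 1 of their probes (detection p-value under 0.05). In all, 10777 genes were tested. The other 7, Rpl3l, Rpl6, Rpl14, Rpl39l, Rps20, Rps23rg1 and Rpsa, were detected on 2 arrays at most. Of 79 genes for cytosolic ribosomal proteins in a list compiled for this work, 52 were among the 58. The other 6 tested members are paralogs or carry a ribosomal protein's name, such as Rps19bp1, which encodes a protein that binds the subunit protein S19. For 23 of the 79 the annotation used here named no probe, among them Rpl5, Rpl11 and Rps27, and they were not analysed here.

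Both groups were male C57BL/6J mice, 8 weeks old, exposed to 9 Gy TBI (total body irradiation) and injected intraperitoneally at once. EGFP mice (n = 3) received 0.1 mM enhanced green fluorescent protein and NeuroD-EGFP mice (n = 3) 0.1 mM of the fusion of that protein with NeuroD, a transcription factor of neurons, islets and enteroendocrine cells. Jejunum was taken at 12 h. All mice were irradiated, so the comparison concerns the added protein and not the radiation. RNA came from whole jejunum, where fewer cells of a type and less RNA per cell cannot be told apart.

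Each ribosome holds a single copy of most of these proteins, and cells make them in matched amounts. Their mRNAs are abundant and stable. Many begin with a C and a run of pyrimidines, the 5′ terminal oligopyrimidine (TOP) tract, through which mTORC1 signalling sets how strongly they are translated, often with little change in mRNA amount. In the intestine, dividing crypt cells rely on a high rate of ribosome production. Irradiation activates p53, and in mouse and human cells Rps27l is among the genes p53 induces.

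To show what these start sites look like, the 30 bases around the annotated start (15 before and 15 after) are given for 8 of the members described here, from RefSeq's GRCm38.p6 table, 5′ to 3′. The 8 members, the window and the run were chosen after the data were seen. Capitals mark the longest run of C and T that begins with C, where it has at least 6 bases. Such a run can lie anywhere in the 30 bases and need not be a TOP tract. That of Rps27l lies wholly before the annotated start, and that of Rps12 reaches the end of its window. The first is a very bright member.
Rpl41, chr10:128549154-128549183, minus strand: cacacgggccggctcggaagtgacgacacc
Rps12, chr10:23787195-23787224, minus strand: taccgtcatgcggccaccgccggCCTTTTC
Rpl7a, chr2:26910792-26910821, plus strand: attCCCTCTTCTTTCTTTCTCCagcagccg
Rps9, chr7:3704026-3704055, plus strand: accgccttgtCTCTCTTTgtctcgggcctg
Rps24, chr14:24490663-24490692, plus strand: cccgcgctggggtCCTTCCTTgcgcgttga
Rpl22, chr4:152325711-152325740, plus strand: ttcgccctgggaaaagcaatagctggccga
Rpl22l1, chr3:28805493-28805522, plus strand: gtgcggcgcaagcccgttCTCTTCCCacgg
Rps27l, chr9:66946071-66946100, plus strand: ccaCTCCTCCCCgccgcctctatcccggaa
A window was found for 48 of the 58 tested members, and 25 of them (52.1%) held such a run on the coding strand. Of all 27025 genes with a window 22.4% held it, as did 23.4% of 8709 tested genes and 26.2% of 65 mitochondrial ribosomal protein genes. The search read the coding strand alone, since the tract belongs to the transcript. An annotated start can lie some bases away from the start in use, so a window without a run says only that the letters are not there. The 25 members with a run had a median log2 difference of 0.03 between the groups and the 23 without 0.08.

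The arrays agreed closely, with correlations between any 2 of them from 0.936 to 0.987. Between 18271 and 20408 probes were detected per array, and the 75th percentile of the signal ran from 80.3 to 122. EGFP mouse 3 stood apart in markers of jejunal enterocytes, whose 11 tested genes were on average at -1.72 from their mean of the 6 mice on the log2 scale, against 0.22 to 0.47 in the other mice. Lct, the lactase that defines jejunal villi, was at 4.56 there and at 12.14 to 13.26 in the others. Values below are log2 intensities after background correction and quantile normalization, and a difference is NeuroD-EGFP minus EGFP on that scale.

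Ribosomal protein mRNAs were among the brightest signals, and their measured differences between the groups were small. Of the 50 named genes with the brightest probes, 1 probe per gene, 11 were members. Among the 50 brightest of all probes on each array, with or without a gene symbol, 3 to 6 were member probes. In the deposited signals, member probes held 4.37%, 4.195% and 4.62% of the summed array signal in EGFP mice 1 to 3 and 4.78%, 4.56% and 4.50% in NeuroD-EGFP mice 1 to 3. The groups overlapped, with means of 4.40% ± 0.21 (SD, n = 3) and 4.62% ± 0.15 (SD, n = 3), and this share does not depend on scaling between arrays. No member passed an adjusted p of 0.05 from limma, and none of all genes did (0%). At an unadjusted p under 0.05 there was also no member, where 4.76% of all tested genes were called, 2.2% higher and 2.56% lower. The lowest adjusted p of a member was 0.92. The median difference was 0.04 for the 58 members, 40 of them positive and 18 negative. For all tested genes it was 0.0047, with 5474 positive and 5303 negative. Among genes of mean level 10 or more, a limit set after seeing the data, it was 0.041 for 47 members and 0.029 for all 1768 genes. Of those 1768 genes, 999 were positive and 769 negative. After scaling to the 75th percentile the median difference was 0.06 for all 58 members and -0.0014 for all tested genes. In the authors' values without scaling it was -0.19 for the members and -0.27 for all genes.

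**Figure D1:**
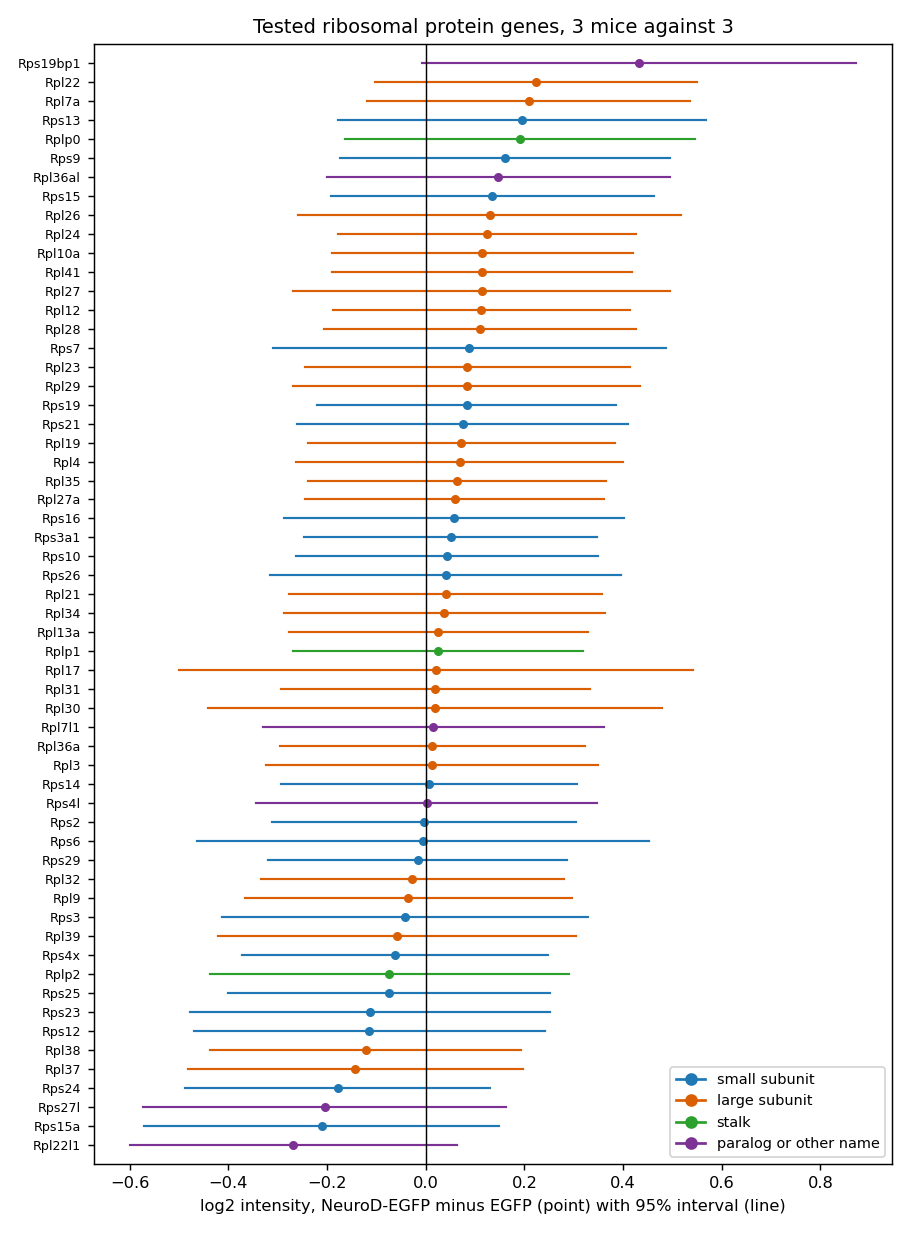
Log2 difference (NeuroD-EGFP minus EGFP, x axis) of each of the 58 tested ribosomal protein genes, 1 gene per line, with limma's 95% interval and a colour for the subunit. Every interval crosses 0, and the differences run from -0.27 (Rpl22l1) to 0.43 (Rps19bp1).

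Within this normalization, the intervals show which differences the values allow. They take no account of compression of signals near the top of the array scale, which would shrink differences and spreads and was not tested. The highest deposited signal of an array was 23189 to 29649, and that of Rpl41 ran from 19902 to 26731. In limma the spread of each probe is drawn toward that of all tested probes. This widens the standard error where a probe's own spread is small. Rps24 had an SD within groups of 0.07 and a standard error of 0.13. For all 58 members the 95% interval from limma lay within 1 on the log2 scale, a 2-fold difference, and for 48 members (82.8%) it lay within 0.5. Of all tested genes, 29.0% had an interval within 0.5. The widest reach was that of Rps19bp1, up to 0.87, and in the other direction that of Rpl22l1, down to -0.60. Differences smaller than 0.25 were found in 56 members (96.6%) and in 72.5% of all genes. These bounds were chosen after the values were seen. The median SD within groups was 0.11 for members and 0.23 for all genes. Bright probes vary less, and the same was read among genes of mean level 10 or more, a limit also set after seeing the data, where the values were 0.10 for 47 members and 0.19 for all 1768 genes. The members in that comparison were still the brighter, with a median level of 13.52 against 11, so brightness was not matched. Scaling to the 75th percentile, which does not force the arrays into the same distribution, left them at 0.096 and 0.20.

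**Figure D2:**
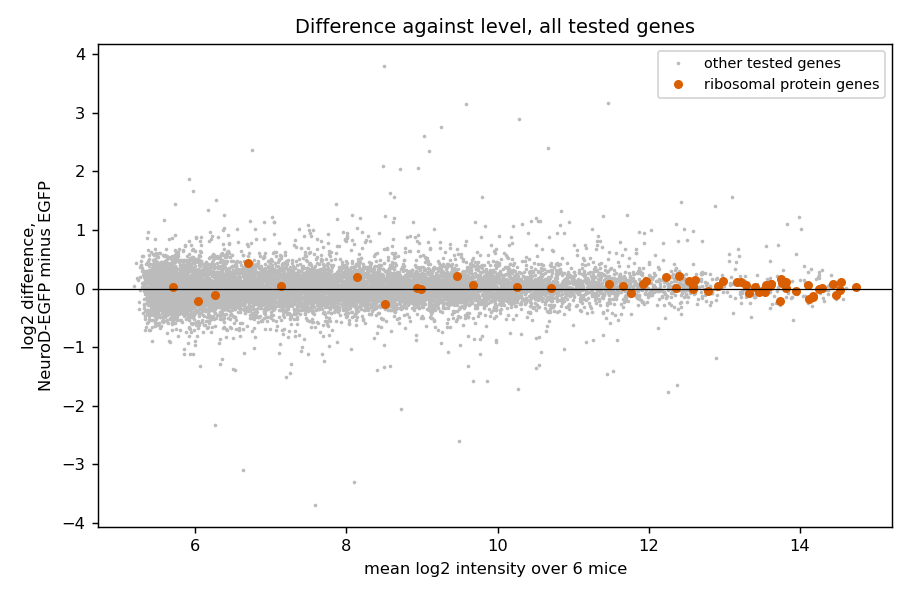
Log2 difference (NeuroD-EGFP minus EGFP, y axis) against the mean log2 intensity over 6 mice (x axis), 1 point per tested gene, with ribosomal protein genes in orange. Differences of the members lie between -0.27 and 0.43, with 47 of 58 at a level of 10 or more.

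Among proteins of the large subunit, 28 genes were tested, of which 23 had a positive difference, with a median of 0.06 and a range from -0.14 to 0.22. Of all 10777 tested genes, 5474 were positive. EGFP mouse 2 had the lowest value in 15 of the 28. Their mean deviations overlapped between groups, at -0.03, -0.09 and 0.04 in EGFP mice 1 to 3 and 0.06, 0.02 and 0.0054 in NeuroD-EGFP mice 1 to 3. Rpl7a, a core protein of the subunit, was measured at 12.34, 12.19 and 12.37 in EGFP mice 1 to 3 and at 12.38, 12.55 and 12.59 in NeuroD-EGFP mice 1 to 3. The NeuroD-EGFP mice all lay above the EGFP mice, by a difference of 0.21 (standard error 0.14, adjusted p = 0.93 from limma), which is 1.16-fold. Rpl22, a protein that binds RNA and is dispensable for translation in most mouse tissues, was at 9.22, 9.34 and 9.48 with EGFP and 9.61, 9.48 and 9.61 with NeuroD-EGFP. Its groups touched without overlapping, and the difference was 0.22 (standard error 0.14, adjusted p = 0.92 from limma).

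Other large subunit members showed how small the differences were. Rpl41, a very short basic peptide, had 14.53, 14.50 and 14.45 with EGFP and 14.62, 14.69 and 14.52 with NeuroD-EGFP, and the groups overlapped (difference 0.11, or 0.23 after scaling to the 75th percentile). Rpl26, which also binds p53 mRNA in human cells, had a difference of 0.13 (standard error 0.17), with EGFP mouse 2 lowest at 12.67 and EGFP mouse 3 highest at 13.17, and without EGFP mouse 2 it was 0.0019. Rpl13a, known in human myeloid cells as a part of a complex that silences inflammatory mRNAs, differed by 0.03 (standard error 0.13). Rpl3, which lies near the peptidyl transferase centre, differed by 0.01 and Rpl39, at the exit tunnel, by -0.06. On the lower side Rpl37 had -0.14 and Rpl38, which in mouse embryos favours translation of Hox mRNAs, had -0.12. After scaling to the 75th percentile these were -0.05 and -0.003. Rpl17 was dim, detected on 5 arrays, and differed by 0.02.

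Among proteins of the small subunit, 21 genes were tested, 11 with a positive and 10 with a negative difference, with a median of 0.0069. Rps24, which takes part in maturation of the small subunit's rRNA, had 14.19, 14.13 and 14.30 with EGFP and 14.08, 14.05 and 13.96 with NeuroD-EGFP. All NeuroD-EGFP mice were below the EGFP mice, with a difference of -0.18 (standard error 0.13, adjusted p = 0.93 from limma), which was -0.06 after scaling to the 75th percentile. Rps13, a core protein of the subunit, had 12.15, 11.91 and 12.35 with EGFP and 12.40, 12.27 and 12.33 with NeuroD-EGFP. The groups overlapped and the difference was 0.20 (standard error 0.16), or 0.08 without EGFP mouse 2 and 0.30 without EGFP mouse 3. A second, dimmer probe of Rps13 gave 0.05.

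Rps9 differed by 0.16 and Rps15 by 0.14 (0.08 without EGFP mouse 2), both with overlapping groups. A second probe of Rps9, at a mean level of 12.97, gave 0.21 (adjusted p = 0.93 from limma). In that probe the NeuroD-EGFP mice all lay above the EGFP mice. Rps12 had -0.11 and Rps29, a zinc-binding protein, -0.02, and both were positive after scaling to the 75th percentile. Rps6, the main substrate of S6 kinases, had a mean of 12.59 in both groups. Its EGFP mice spread from 12.21 in mouse 2 to 12.88 in mouse 3, while the NeuroD-EGFP mice lay between 12.54 and 12.65. The dim probes of Rps15a and Rps23 had differences of -0.21 (standard error 0.15) and -0.11 (standard error 0.15). Rps19, which is mutated in many families with Diamond-Blackfan anaemia, was at 13.48, 13.62 and 13.63 with EGFP and at 13.66 in each of the 3 NeuroD-EGFP mice, so that the groups lay apart by a few hundredths (difference 0.08, standard error 0.13).

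The stalk of the large subunit, which recruits elongation factors, is built from Rplp0 and pairs of Rplp1 and Rplp2. Rplp1 was the brightest probe on 5 of 6 arrays and ranked 3 in EGFP mouse 2. Its deposited signal was 29649, 27825 and 27725 in EGFP mice 1 to 3 and 28802, 28526 and 23189 in NeuroD-EGFP mice 1 to 3. After quantile normalization the 5 arrays where it ranked first share a single value of 14.76, so that its difference of 0.02 carries little information. After scaling to the 75th percentile the difference of Rplp1 was 0.16. Rplp2 had 13.33, 13.22 and 13.56 with EGFP and 13.44, 13.23 and 13.23 with NeuroD-EGFP, and the groups overlapped (difference -0.07). Rplp0, used in many laboratories as a reference gene, had 8.0, 8.17 and 7.94 with EGFP and 8.41, 8.17 and 8.11 with NeuroD-EGFP. The groups overlapped, and the difference was 0.19 (standard error 0.15, adjusted p = 0.93 from limma). A second, dimmer probe of Rplp0 gave 0.02. Rpsa, the laminin receptor of the small subunit, was detected on 1 array at most and was not tested.

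The extremes of the whole family were a namesake, Rps19bp1, and a paralog, Rpl22l1, at mean levels of 6.69 and 8.51. Rps19bp1 had the largest positive difference, with 6.495, 6.19 and 6.74 in EGFP mice and 7.08, 6.91 and 6.74 in NeuroD-EGFP mice. Its lowest NeuroD-EGFP mouse lay just under its highest EGFP mouse, and the difference was 0.43 (standard error 0.19, adjusted p = 0.92 from limma, unadjusted p = 0.053). Without EGFP mouse 2 it was 0.29. The most negative difference belonged to Rpl22l1, a paralog of Rpl22 that stands in for it in mice that lack Rpl22. It had 8.72, 8.49 and 8.73 with EGFP and 8.45, 8.39 and 8.29 with NeuroD-EGFP, groups that did not overlap. The difference was -0.27 (standard error 0.14, adjusted p = 0.92 from limma). Rps27l, the p53-responsive paralog of Rps27, had 13.85, 13.70 and 13.99 with EGFP and 13.83, 13.57 and 13.52 with NeuroD-EGFP. These overlapped, with a difference of -0.20 (standard error 0.16). Rpl36al had 0.15 (0.04 without EGFP mouse 2), Rpl7l1 0.02 and Rps4l 0.0017.

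**Figure D3:**
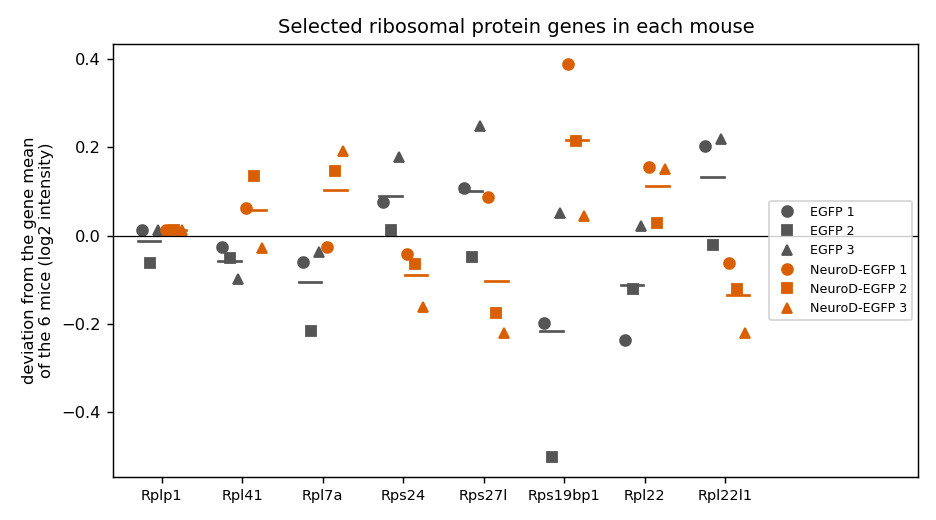
Log2 intensity of 8 members in each mouse, as the deviation from that gene's mean over the 6 mice (y axis), with EGFP mice in grey, NeuroD-EGFP mice in orange, a symbol for each mouse number and a bar at the mean of each group. Rpl22 and Rpl22l1 differ in opposite directions, and EGFP mouse 2 is the lowest point of Rpl7a, Rplp1 and Rps19bp1.

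Since Rpl22 and Rpl22l1 differed in opposite directions, the change of the paralog less that of the gene it is named for was set out for each of the 4 pairs in which both were tested. For Rpl22l1 against Rpl22 the log2 difference within each mouse, centred on its mean, was 0.44, 0.10 and 0.20 in EGFP mice 1 to 3 and -0.22, -0.15 and -0.37 in NeuroD-EGFP mice 1 to 3. The group means differed by -0.49. Both genes had groups that did not overlap, in opposite directions, so this difference could only separate the groups too and is given as a description. It ranged from -0.57 to -0.39 when a mouse was left out and from -0.53 to -0.46 in the other settings. The pair was singled out after its values were seen. Rpl36al against Rpl36a changed by 0.13, Rps4l against Rps4x by 0.06 and Rps19bp1 against Rps19 by 0.35, each with overlapping groups (two-sided exact permutation p = 0.3, 0.6 and 0.2, or 0.4, 0.6 and 0.4 adjusted over the 4 pairs, where 3 mice against 3 cannot go below 0.1).

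With each gene read by its brightest probe, 6 members had groups that do not overlap on the higher side, Rpl7a, Rpl12, Rpl22, Rpl24, Rps3a1 and Rps19. On the lower side there were 2, Rps24 and Rpl22l1. These are 10.3% and 3.45% of the members, and over all tested genes the shares were 5.44% and 5.93%. Among the 6 the differences were small, from 0.05 for Rps3a1 to 0.22 for Rpl22.

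Several probes read the same gene for 19 members, in 12 of which all probes had the same sign and in 7 of which they did not. No single member probe had an unadjusted p under 0.05. The 4 probes of Rpl23 gave 0.03 to 0.23 and the 3 probes of Rps24 gave -0.18 to -0.04. The brightest probe of Rpl21 gave 0.04 and its other probes 0.41 and 0.42, at mean levels of 7.14 for the first and 6.26 for the dimmest. The dimmest gave 0.41, with the lowest unadjusted p of any member probe (0.051 from limma, adjusted p = 0.92). In it the NeuroD-EGFP mice all lay above the EGFP mice. Ribosomal protein genes have many processed copies in the mouse genome, and a probe can read more than its own gene.

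The level of the family also varied between mice. EGFP mouse 2 had the lowest value of the 6 mice in 29 of 58 members (50%), against 17.8% of all tested genes. Comparison lists had shares of 45.5% (other TOP mRNAs), 44.4% (proteasome), 42.9% (elongation factors), 33.3% (ribosomal stress and p53), 32.0% (initiation factors) and 30.2% (assembly factors). The shares were 22.2% for mTORC1 signalling, 20% for RNA polymerase I and 17.8% for mitochondrial ribosomal proteins. A low EGFP mouse 2 was thus also seen in some lists outside the family, though the TOP and elongation lists share Eef1a1 and Eef2. NeuroD-EGFP mouse 1 was lowest in no member, against 11.8% of all tested genes. Averaged over the members, the deviation from the mean of the 6 mice was -0.0035, -0.10 and 0.05 in EGFP mice 1 to 3 and 0.06, -0.01 and -0.00022 in NeuroD-EGFP mice 1 to 3. Without EGFP mouse 2 the median difference of the members was 0.0031, with 32 positive and 26 negative, just under the median of all genes. In the same mouse, markers of smooth muscle and stroma stood at -0.61 from their mean (7 genes, of which 6 had their lowest value there), and those of neutrophils and macrophages at -0.67 (6 genes, of which 5 had their lowest value there). The 2 pancreatic acinar genes stood at 1.25 in that mouse. The other marker lists there ran from -0.50 (Paneth cells) to 0.47 (jejunal enterocytes). In EGFP mouse 1 marker lists ran from -0.85 (adipocyte and mesothelium) to 0.71 (T and NK lymphocytes), with smooth muscle and stroma at -0.30, while the members stood at -0.0035. The part of these cells in the members' values was not tested. In EGFP mouse 3 the members stood at 0.05, markers of smooth muscle and stroma at 0.85 and those of neutrophils and macrophages at 0.41, both highest of the 6 mice, and enterocyte markers at -1.72.

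**Figure D4:**
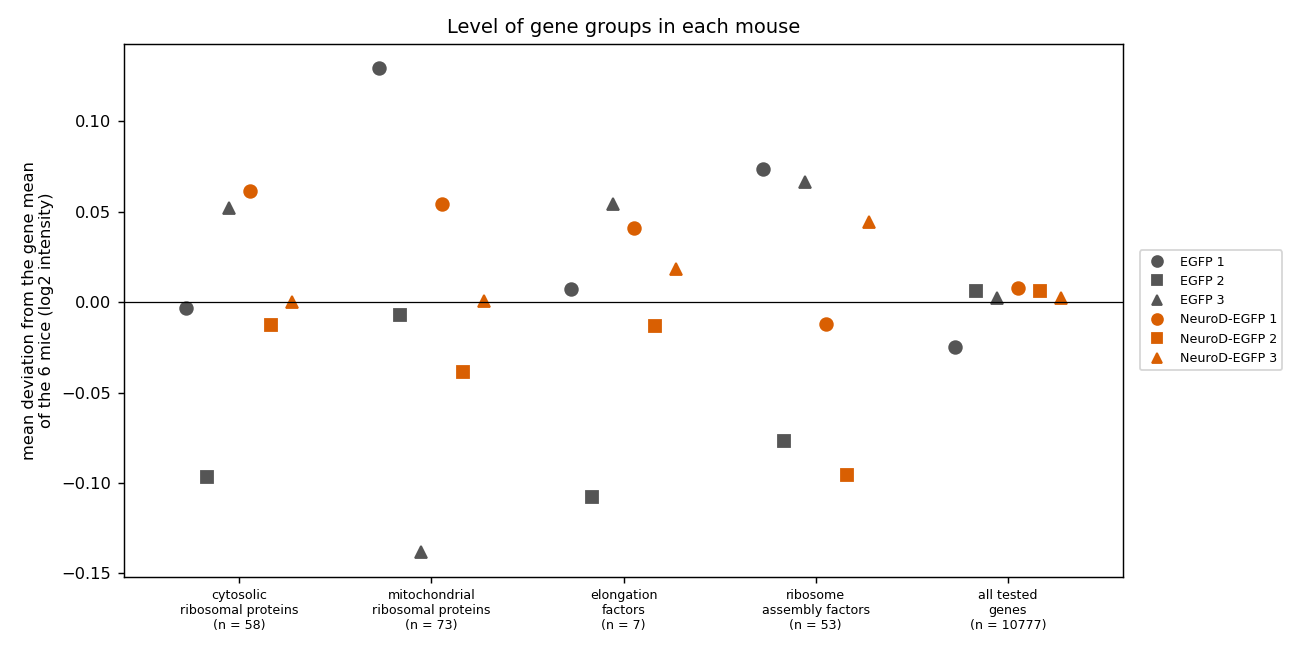
Mean deviation of the genes of each group from their mean over the 6 mice (log2 intensity, y axis), with EGFP mice in grey, NeuroD-EGFP mice in orange and a symbol for each mouse number. For cytosolic ribosomal proteins EGFP mouse 2 lies lowest at -0.10, while the NeuroD-EGFP mice lie at 0.06, -0.01 and -0.00022 and the other EGFP mice at -0.0035 and 0.05.

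Other genes of the translation machinery were read from the same fit. In no list did a gene reach limma's adjusted threshold of 0.05. Of 73 tested mitochondrial ribosomal protein genes, which serve the separate ribosome of mitochondria, 40 had a positive and 33 a negative difference, with a median of 0.01. Mrps18c alone had an unadjusted p under 0.05. It was at 10.75, 10.68 and 10.64 with EGFP and 10.44, 10.30 and 10.38 with NeuroD-EGFP, a difference of -0.32 (standard error 0.13). Mrpl57, detected on 3 of 6 arrays, had 0.32 (standard error 0.17). The level of this list by mouse did not follow that of the cytosolic proteins, with EGFP mouse 1 highest at 0.13 and EGFP mouse 3 lowest at -0.14.

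Of 7 elongation factors, 4 had a positive difference. Eef2, which moves the ribosome along the mRNA and whose own mRNA has a TOP tract, was at 9.94, 9.92 and 10.10 with EGFP and 10.38, 10.35 and 10.21 with NeuroD-EGFP. All NeuroD-EGFP mice were above the EGFP mice, with a difference of 0.33 (standard error 0.14, unadjusted p = 0.044, adjusted p = 0.92 from limma). Eef1e1, a scaffold subunit of the tRNA synthetase complex, had -0.16. Of 11 other TOP mRNAs, Eef2 among them, 5 were positive and 6 negative. Gas5, a noncoding host of small nucleolar RNAs, was lower in all NeuroD-EGFP mice, with -0.30 (standard error 0.14). Of 25 initiation factors, 12 were positive and 13 negative, with Eif4b, a cofactor of the helicase eIF4A, at 0.38 (standard error 0.17) and Eif2b2 at 0.22 (standard error 0.13).

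Genes that make the ribosome, and those that control it, gave medians near 0 as well. Of 53 ribosome assembly factors, 22 were positive and 31 negative, with a median of -0.04. Nop58, a core protein of box C/D small nucleolar particles, had 10.31, 10.08 and 10.29 with EGFP and 9.89, 9.86 and 10.07 with NeuroD-EGFP, a difference of -0.28 (standard error 0.14). Dkc1, the pseudouridine synthase of box H/ACA particles, had -0.34 (standard error 0.20). Of 15 genes of RNA polymerase I and its regulators, which transcribe rRNA, 8 were positive. Taf1c, a subunit of the selectivity factor SL1, was at 5.24, 5.23 and 5.41 with EGFP and 5.92, 5.85 and 5.81 with NeuroD-EGFP, a difference of 0.57 (standard error 0.13, unadjusted p = 0.0035, adjusted p = 0.80 from limma). It was detected on 4 of 6 arrays. Taf1a, of the same factor, had 0.26 (standard error 0.14).

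In mTORC1 and S6 kinase signalling 10 of 18 genes were positive and none had an unadjusted p under 0.05, with Rps6ka3, the kinase RSK2, at -0.24 and Akt1s1, an mTORC1 inhibitor, at 0.23. Of 9 genes of ribosomal stress and p53, 4 were positive, with Nop53, a nucleolar assembly factor that binds the 5S particle, at 0.20 (standard error 0.17). As a comparison outside translation, proteasome subunits had 5 positive and 22 negative differences in 27 genes, with a median of -0.10. Psmd6 had -0.29 (standard error 0.14) and Psma6 -0.31 (standard error 0.16). Markers of crypt stem and dividing cells, in which ribosome production is high, were negative in all 10 tested genes, with a median of -0.15 and none at an unadjusted p under 0.05. Their level was highest in EGFP mouse 1, at 0.38, where the ribosomal protein genes stood at -0.0035.

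The number of members with a positive difference was 40 as reported and 44 after scaling to the 75th percentile. In the authors' unscaled log2 values 57 of 58 members were negative, along with the median of all genes. Relative to all genes the members then stood at 0.08, against 0.03 as reported.

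**Figure D5:**
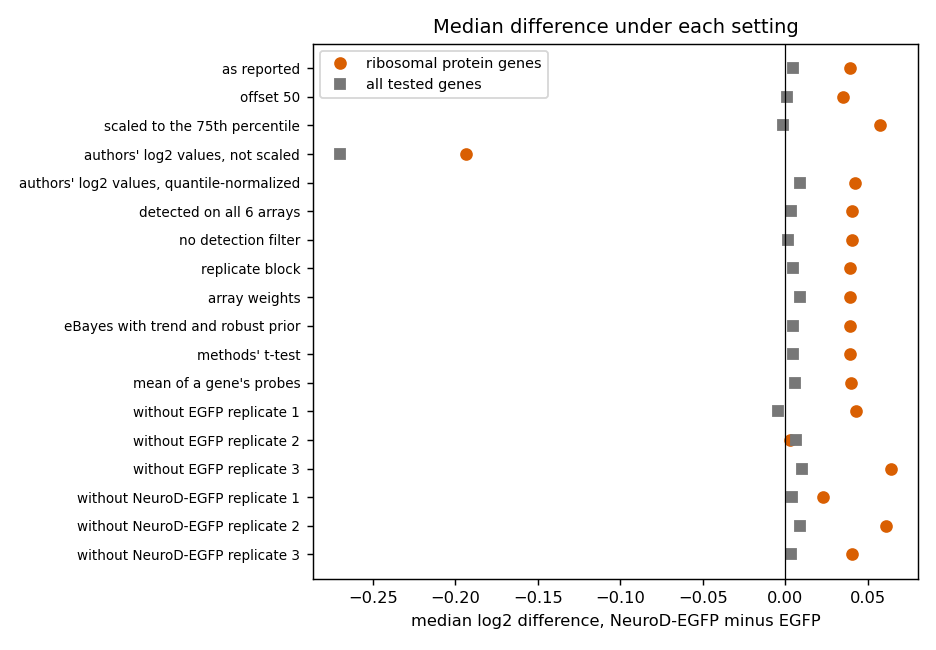
Median log2 difference (NeuroD-EGFP minus EGFP, x axis) of the ribosomal protein genes (orange) and of all tested genes (grey) under each processing setting (y axis). Both medians lie well below 0 in the authors' values without scaling, at -0.19 and -0.27, and between -0.0044 and 0.064 in the other settings.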

How the data were processed

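Jejunum RNA of 6 mice was labelled with Cy3 as cRNA and hybridized, 1 array for each mouse, to Illumina Mouse WG-6 beadchips. The authors deposited intensities, already background-subtracted (24.4% to 26.1% of them not above 0), and a detection p-value beside each deposited signal. Their second deposited table holds log2 of these intensities, with 4 where the signal was not above 0 and no scaling between arrays. Scanner software is not given in the sources used here.

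Log2 values were computed with limma 3.58.1 in R 4.3.3 (normexp with background estimated through detection p-values, an offset of 16, then quantile normalization). The detection filter kept 19099 probes. Of all probes 34885 had 1 gene symbol, 18 several and 10378 none listed. Symbols were updated through RefSeq (GRCm38.p6), and a gene was read by its brightest tested probe. NeuroD-EGFP and EGFP were compared by lmFit and eBayes, and p-values were adjusted by Benjamini-Hochberg across every probe tested. Brightness of different probes does not measure RNA amounts between genes. The number of arrays limits the precision.

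Named members are the 8 of lowest p in each direction, the 3 brightest and 3 dimmest, the stalk, Rpl13a, Rpl26, Rps6 and paralogs with the genes they are named for, and from each list of related genes the 2 of lowest p. Members and lists were chosen with earlier results of these data known. The list of 79 genes was compiled after the files were read, and Rps3a1, Rpl12, Rpl24, Rpl21 and Rpl23 were named after their values were seen. The scripts were tested on simulated data. Alternatives covered offset, scaling, detection filter, replicate block, array weights, prior, the methods' t-test, mean of probes and leaving out each mouse. Centring on all genes, the settings of the Rpl22l1 pair and the split by level were added after seeing the data. Protein sequences were not used here.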

Additional observations from a re-analysis of the deposited data

How the results depend on the processing

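Across 17 alternative settings no ribosomal protein gene passed an adjusted p of 0.05. At an unadjusted p under 0.05 the members called were at most 1 higher (Rps19bp1, in 5 settings) and 3 lower (in the authors' unscaled values). In those 5 settings 189 to 782 of all genes were called higher. In the unscaled values 1172 of all 10777 genes were called lower, beside the 3 of 58 members. The methods' t-test, which uses each probe's own spread, called 2 members lower at that threshold, Rpl22l1 and Rps24. It called 616 of all genes there, and none after Benjamini-Hochberg adjustment. The count over all tested genes was 0 to 16 when a mouse was left out, the 16 being without EGFP mouse 3, where 1505 genes had an unadjusted p under 0.05 against 513 with all mice. With the replicate number as a block, the members' median stayed at 0.039, no member was called at either threshold, and 575 genes had an unadjusted p under 0.05. Deviations of same-numbered mice from their group mean correlated at 0.302, -0.0903 and 0.165. Those of differently numbered mice correlated at -0.269 to 0.0982. With 3 mice per group, these values cannot tell whether the numbers pair the mice.

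The members' median was 0.0031 to 0.064 when a mouse was left out and -0.1934 in the unscaled values, where the median of all genes was -0.2698. After subtracting the median of all genes, that of the members was 0.076 in the unscaled values and -0.0035 without EGFP mouse 2. In the unscaled values the medians were -0.2557 for mitochondrial ribosomal proteins, -0.06475 for Nop53 alone, -0.1992 for elongation and -0.2911 for initiation factors, -0.3004 for other TOP mRNAs, -0.3094 for assembly factors, -0.268 for RNA polymerase I, -0.2573 for mTORC1 signalling, -0.2669 for ribosomal stress and -0.3635 for the proteasome. The array weights gave -0.06554 for RNA polymerase I, and the mean of probes -0.01333 for mTORC1 signalling. With a mouse left out RNA polymerase I ranged from -0.05314 to 0.05388 and ribosomal stress from -0.03822 to 0.08206.

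Of 31 named members, 17 changed sign in the unscaled values, where the median of all genes was -0.2698: Rpl22 (-0.03785), Rpl7a (-0.04878), Rplp0 (-0.06665), Rps13 (-0.06387), Rps9 (-0.0491), Rpl36al (-0.09864), Rps15 (-0.1419), Rplp1 (-0.08788), Rpl41 (-0.01472), Rpl17 (-0.2271), Rpl13a (-0.2443), Rpl26 (-0.07951), Rps4l (-0.2615), Rpl7l1 (-0.2469), Rpl36a (-0.2396), Rpl3 (-0.2085) and Rps19 (-0.1343). Scaling to the 75th percentile turned Rps12 (0.007068), Rps29 (0.09193), Rps6 (0.001438) and Rps4l (-0.007584), and array weights turned Rps6 (0.01828), Rps4l (-0.06946), Rpl7l1 (-0.05386) and Rpl36a (-0.01909). With a mouse left out the sign changed for Rpl13a (-0.00097 to 0.07521), Rpl17 (-0.1172 to 0.2562), Rpl3 (-0.06869 to 0.08437), Rpl36a (-0.03038 to 0.07043), Rpl39 (-0.1777 to 0.02576), Rpl7l1 (-0.04532 to 0.08941), Rplp2 (-0.1494 to 0.02296), Rps29 (-0.04152 to 0.02629), Rps4l (-0.07935 to 0.07182) and Rps6 (-0.1971 to 0.1374). None of these members passed an adjusted p of 0.05 in any setting, and the cause of the sign changes was not tested.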
